A study of Mus musculus with 2 samples.

Results

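Chromatin accessibility was described at 8 genes that encode transcription regulators of the pachytene programme: Mybl1, Tcfl5, Ovol1, Tbpl1, Brdt, Pou5f2, Crem and Rfx2. They were taken from a list of gene names, drawn up with earlier results of these data known, and all 8 were found among 21911 protein-coding genes of the GENCODE M21 mouse annotation. The data are DNase-seq, which maps open chromatin from the places where DNase I cuts DNA, of whole testis from 14-day-old B6CASTF1/J males, the first-generation cross of C57BL/6 and a castaneus-derived strain. The animals make up 1 group, with no treatment or mutant, and were measured in 2 libraries labelled biological replicates 1 and 2. The label of replicate 1 names 3 males, that of replicate 2 gives no number, and both name the same donor, so the spread between them may be technical. With 1 group there was no contrast to test, and every value below is a description of these libraries.

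Pachytene is the long stage of meiotic prophase in which homologous chromosomes are fully paired, and in the male germ line it comes with a broad switch in transcription. At this age the first wave of germ cells has reached pachytene, while haploid spermatids have not yet formed. MYBL1 (A-MYB) drives many pachytene genes and piRNA precursors, and TCFL5 is a basic helix-loop-helix factor that works with it. OVOL1 is a zinc-finger repressor needed for progress through pachytene. TBPL1 is a relative of the TATA-binding protein, and BRDT is a germ-cell bromodomain protein that reads acetylated histones. POU5F2 (Sprm-1) is a POU-homeodomain protein of male germ cells, while CREM and RFX2 are best known as activators of genes used after meiosis.

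The files listed 101172 peaks in replicate 1 and 117359 in replicate 2, with 269247 and 349555 footprints, which are short stretches protected from cutting inside open chromatin. The unit used below is the authors' signal value of a peak, whose median over all peaks was 0.543 and 0.506 in replicates 1 and 2. The read depth is unknown, but the values came in whole multiples of 0.00538 and 0.00377. Whole testis mixes cell types: a promoter peak was present in both libraries at 5 of 5 germ-cell markers (Dazl highest, 10.4), 5 of 5 Sertoli-cell markers (Wt1, 3.39), 5 of 5 Leydig-cell markers (Star, 2.92) and 4 of 4 peritubular myoid markers (Ptch1, 2.31). It was present at 2 of 4 endothelial markers (Kdr, 0.847, with none at Pecam1), 2 of 5 blood-cell markers (Epor, 0.982, with none at Adgre1) and 1 of 4 epididymis markers (Cst8, 0.285, with none at Adam7). The same held for 68.7% of all protein-coding genes, so such counts alone do not show a cell type. List medians were 8.56 for germ, 2.14 for Sertoli, 0.641 for Leydig and 1.39 for myoid markers. They were 0.216 for endothelial, 0.161 for blood and 0 for epididymis markers. At its 5' end alone Ptch1 had 0.699 and 0.661. More open alleles in a cell type and more cells of that type cannot be told apart in such tissue.

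All 8 regulators had a promoter peak, meaning a peak within 1000 bp of an annotated transcription start, in both libraries. The same was true of 68.7% of all protein-coding genes, so presence alone does not set them apart. In the shorter, stricter peak lists it was 8 of 8 members against 63.4% of all genes, and for a peak near the 5' end of the gene itself 8 of 8 against 64%. The height of the strongest promoter peak spread widely between them. Rfx2 stood highest with 16.2 in replicate 1 and 15.4 in replicate 2 (15.8 ± 0.61, SD, n = 2), above 97.1% and 96.2% of all genes. Tbpl1 followed with 9.73 and 10.2, Crem with 8.76 and 7.43, and Brdt with 6.78 and 7.67. Tcfl5 had 4.67 and 3.57, and Mybl1 4.33 and 3.57, close to the median of the genes with a peak, 3.87 and 3.50. Pou5f2 had 1.01 and 0.774 and Ovol1 0.774 and 0.695, both below the median of all genes when genes with no peak count as 0, which was 1.42 and 1.30. In this order Crem and Brdt overlapped in their ranges over the libraries, as did Tcfl5 and Mybl1, and Pou5f2 and Ovol1, whereas the other neighbours did not. The median over the 8 genes was 5.73 and 5.50 (5.61 ± 0.16, SD, n = 2). Replicate 2 was lower at 6 of the 8, all but Tbpl1 and Brdt, with a median ratio of 0.873, beside 60.5% of all open genes and a median ratio of 0.950.

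**Figure D1:**
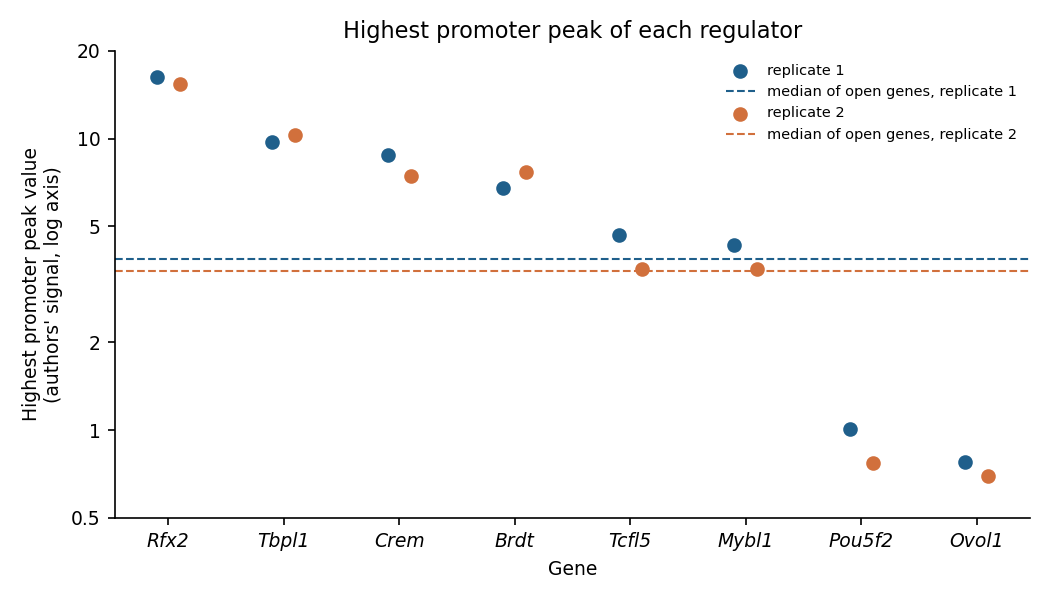
Highest promoter peak value (authors' signal, log axis) of each regulator, with 1 point per library and dashed lines at the median of all genes with a promoter peak in that library. Rfx2, at 16.2 and 15.4, stands above the other regulators, Tcfl5 and Mybl1 sit near the lines, and Pou5f2 and Ovol1 lie far below them.

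The DNA under these peaks shows where protection repeated between the libraries. The part of the strongest promoter peak that both libraries share and that lies outside exons is printed 5' to 3' for 4 of the genes on the gene's strand (mm10, GRCm38.p6), with capitals for bases inside a footprint in both libraries. Tbpl1 is left out because its strongest peak lies in exons, and Ovol1 because its shared stretch outside exons was short.
Tcfl5, chr2:180642709-180642860, minus strand: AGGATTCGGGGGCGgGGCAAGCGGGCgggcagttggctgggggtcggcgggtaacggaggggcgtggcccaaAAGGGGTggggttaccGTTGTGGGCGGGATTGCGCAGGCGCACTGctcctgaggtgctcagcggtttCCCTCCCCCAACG
Brdt, chr5:107331021-107331158, plus strand: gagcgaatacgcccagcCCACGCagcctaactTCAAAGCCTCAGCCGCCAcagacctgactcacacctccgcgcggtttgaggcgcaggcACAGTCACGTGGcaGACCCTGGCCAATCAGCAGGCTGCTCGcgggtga
Pou5f2, chr13:78024761-78024901, plus strand: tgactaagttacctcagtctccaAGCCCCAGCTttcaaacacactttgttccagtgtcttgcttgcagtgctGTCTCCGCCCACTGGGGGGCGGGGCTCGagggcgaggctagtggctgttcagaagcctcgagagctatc
Rfx2, chr17:56831101-56831340, minus strand: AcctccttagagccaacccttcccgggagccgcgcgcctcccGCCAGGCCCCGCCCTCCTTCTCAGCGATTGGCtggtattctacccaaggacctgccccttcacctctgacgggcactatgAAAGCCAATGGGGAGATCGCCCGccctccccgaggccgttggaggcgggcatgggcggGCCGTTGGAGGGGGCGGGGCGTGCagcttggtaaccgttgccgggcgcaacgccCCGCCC
Bases protected in both libraries numbered 86 of 240 at Rfx2, 74 of 152 at Tcfl5, 63 of 138 at Brdt and 38 of 141 at Pou5f2. At Tcfl5 and Rfx2 they fall in 5 runs each, at Brdt in 4 and at Pou5f2 in 2.

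Mybl1 (chr1:9667415-9700209, minus strand), the gene of A-MYB, had its open region just upstream of its 5' end. In replicate 1 it was 1 peak of 500 bp with a value of 4.33 and 12 footprints. In replicate 2 the same stretch was listed as 2 adjoining peaks, of 3.57 with 9 footprints and of 2.49 with 7. A footprint across their shared border is counted in both. Neither library's strongest peak covered an annotated start. A weaker peak over the first exon had 1.66 and 1.55. Of the 5 annotated starts, the 3 near the 5' end had a peak within 1000 bp in both libraries. The other 2 lie 16757 and 21599 bp inside the gene, belong to transcripts not annotated as coding, and had neither a peak nor a base with a listed FDR below 0.05 in either library.

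Tcfl5 (chr2:180621956-180642708, minus strand) encodes the partner of A-MYB, and its strongest peak had identical borders in both libraries, chr2:180642661-180642860, with 5 footprints in each. It covered the 5'-most start, and all 3 starts, spread over 361 bp, counted as open. The values of 4.67 in replicate 1 and 3.57 in replicate 2 (4.12 ± 0.78, SD, n = 2) set it beside Mybl1. Another peak inside the gene, centred 727.5 and 767.5 bp from the 5' end, had 1.73 and 1.45 and 3 footprints in each library.

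Ovol1 (chr19:5549136-5560646, minus strand), the gene of the zinc-finger repressor, had the lowest mean promoter value of the 8 (0.734), although its range overlapped that of Pou5f2. The 2 promoter peaks of Ovol1 were of nearly equal height: 0.774 and 0.695 for the one inside the gene, centred 555.5 and 455.5 bp from the 5' end, and 0.731 and 0.578 for the one around or upstream of the 5' end. The middle of the latter lies in an intron of AC126029.1 in both libraries. Borders differed between libraries, with the inner peak 460 bp wide in replicate 1 and 100 bp wide in replicate 2, and footprints numbered 5 and 1 there. The values equal 144 and 184 of the smallest steps, compared with 3017 and 4067 for Rfx2. The lowest FDR listed near its 5' end was 3.96e-08 and 1.9e-05, below the authors' limit of 0.05 in both libraries.

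Tbpl1 (chr10:22703879-22731938, minus strand), the gene of the TATA-binding protein relative, had a narrow strong peak away from its 5'-most start. The peak, chr10:22731321-22731440, was 120 bp wide in both libraries, with values of 9.73 and 10.2 (9.99 ± 0.36, SD, n = 2) and 4 footprints in each. It covered an inner start at 22731361, 577 bp inside the gene, and lay next to another at 22731447. The peak nearest the 5'-most start reached only 1.59 and 1.62. A start near the 3' end, 25553 bp inside and of a transcript not annotated as coding, had 0.382 and 0.396. Of the footprints that overlapped the strong peak, one that crosses its border and spans the start at 22731447 was found in both libraries. Its shared bases, chr10:22731431-22731449, are printed on the gene's strand with the letters CCGGAAGT, the core that ETS-family factors are known to bind, in capitals.
Tbpl1 footprint: gcgagaaCCGGAAGTgagt

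Brdt (chr5:107331159-107387058, plus strand), the germ-cell bromodomain gene, had strong peaks at both ends of its set of annotated starts. At the 5' end the peak chr5:107331021-107331220 had the same borders and 7 footprints in both libraries, with values of 6.78 and 7.67 (7.23 ± 0.63, SD, n = 2), and covered the 3 starts there. A further start lies 28678 bp inside the gene and belongs to a transcript not annotated as coding. That start was itself covered by a peak of 0.661 in replicate 1 and by none in replicate 2. The peak 296.5 bp upstream of the start, chr5:107359441-107359640, had 4.16 and 4.17 and 5 footprints in each library. It was nearly the same height in both. The observed over expected CpG ratio was 0.272 there and 0.776 at the 5' peak, beside a median of 0.802 and 0.786 over the strongest promoter peaks of all genes. The longest stretch of this inner peak outside exons is printed like those above.
Brdt inner peak, chr5:107359474-107359579, plus strand: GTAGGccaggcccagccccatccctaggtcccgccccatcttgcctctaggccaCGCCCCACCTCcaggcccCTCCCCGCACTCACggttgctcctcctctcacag

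Pou5f2 (chr13:78024902-78026295, plus strand) is a gene with a single annotated start that lies within an intron of Fam172a. Its strongest peak covered that start in both libraries, with values of 1.01 and 0.774 (0.892 ± 0.168, SD, n = 2), or 188 and 205 steps. Only 2 footprints fell in it in replicate 1 and 4 in replicate 2. Its CpG ratio of 0.417 and 0.390 was the lowest among the strongest peaks of the 8 genes. Weaker peaks lay over the coding sequence, 2 in replicate 1 and 3 in replicate 2, all with values between 0.196 and 0.226.

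Rfx2 (chr17:56775897-56831013, minus strand), the winged-helix factor gene, had the strongest promoter of the set. The peak chr17:56831101-56831340 had the same borders in both libraries and lay wholly upstream, centred 207.5 bp before the 5' end. It was overlapped by 6 footprints in replicate 1 and 5 in replicate 2, of which 4 and 3 lay wholly inside it. The 4 starts within 74 bp of the 5' end were open in both libraries. The start 47309 bp inside the gene, of a transcript not annotated as coding, had no peak and no base below the FDR limit. A weak peak near 1 kb inside the gene had 0.613 and 0.691, and another of 0.963 was listed in replicate 2 alone.

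Several members carry many annotated starts, and these were not all open. Of the 50 starts of the 8 genes, 35 had a peak within 1000 bp in both libraries and 15 in neither, so no start was open in a single library. Over all protein-coding genes the share open in both was 56%. The 15 closed starts were 12 of Crem, 2 of Mybl1 and 1 of Rfx2. All starts of Tcfl5, Ovol1, Tbpl1, Brdt and Pou5f2 were open, although starts within 1000 bp of each other share peaks and are not independent. The Ovol1 start 1243 bp inside the gene had no peak within 250 bp in either library.

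Crem (chr18:3266048-3337748, minus strand) had 26 annotated starts in 6 clusters, and 2 of the clusters were open. The gene is known to use alternative promoters, one of which gives the short repressor ICER. The cluster at the 5' end, with 8 starts over 685 bp, had a peak of 440 bp with identical borders, values of 8.76 and 7.43 (8.09 ± 0.94, SD, n = 2) and 5 footprints in each library. The middle of that peak also lies within another annotated gene, Gm6225. The cluster of 6 starts that begins 55979 bp inside the gene, all of whose 7 transcripts are annotated as coding, had 0.667 and 1.14 (0.903 ± 0.33, SD, n = 2). Its starts at 56670, 56647 and 56616 bp had these values within 250 bp. Those at 56010, 56001 and 55979 bp had no peak within 250 bp in either library and count as open only through the 1000 bp limit. At this inner cluster replicate 2 was the higher, opposite to the 5' cluster, and the lowest FDR was 1.23e-16 and 7.12e-22. The 12 starts of the 4 clusters between them, 10157 to 38296 bp from the 5' end, had no peak and no base listed below an FDR of 0.05 in either library, although 17 of their 21 transcripts are annotated as coding.

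**Figure D2:**
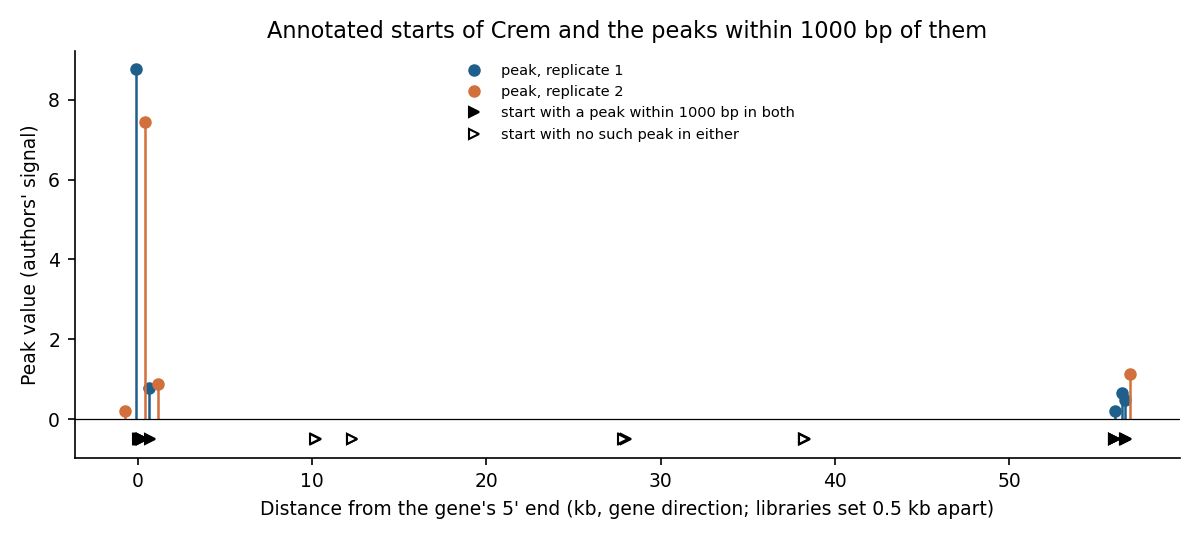
Peaks within 1000 bp of annotated Crem starts by distance from the 5' end (kb), with the authors' value on the vertical axis, 1 colour per library, and triangles for starts. Peaks reach 8.76 and 7.43 at the 5' end and 0.667 and 1.14 at the innermost cluster, and the 12 starts between (open triangles) have none.

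Around the 5' ends, the 8 genes had 27 promoter peaks in replicate 1 and 26 in replicate 2 when peaks at inner starts are included, of which 20 (74.1%) and 21 (80.8%) overlapped a peak of the other library, beside 88.3% and 81.7% of the promoter peaks of all genes. At each of the 8 the strongest peak of one library overlapped that of the other. It covered an annotated start at 5 of 8 genes in each library, and not at Mybl1, Ovol1 and Rfx2. The same held for 72.8% and 70.6% of all genes with a promoter peak. Strongest peaks held a median of 5 footprints in each library, or 2.45 and 2.29 per 100 bp, beside 4 and 1.88 and 1.96 per 100 bp over all strongest promoter peaks. A footprint in that peak in both libraries was found at 8 of 8 members and at 14654 of all 21911 genes (66.9%). Only the 15057 genes with a promoter peak in both libraries could have one, so this does not set the members apart. Of the 46 footprints in the strongest peaks of the members in replicate 1, 37 (80.4%) overlapped a footprint of replicate 2. In the other direction it was 33 of 40 (82.5%), beside 75.3% and 69.7% of the footprints in the strongest promoter peaks of all genes.

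**Figure D3:**
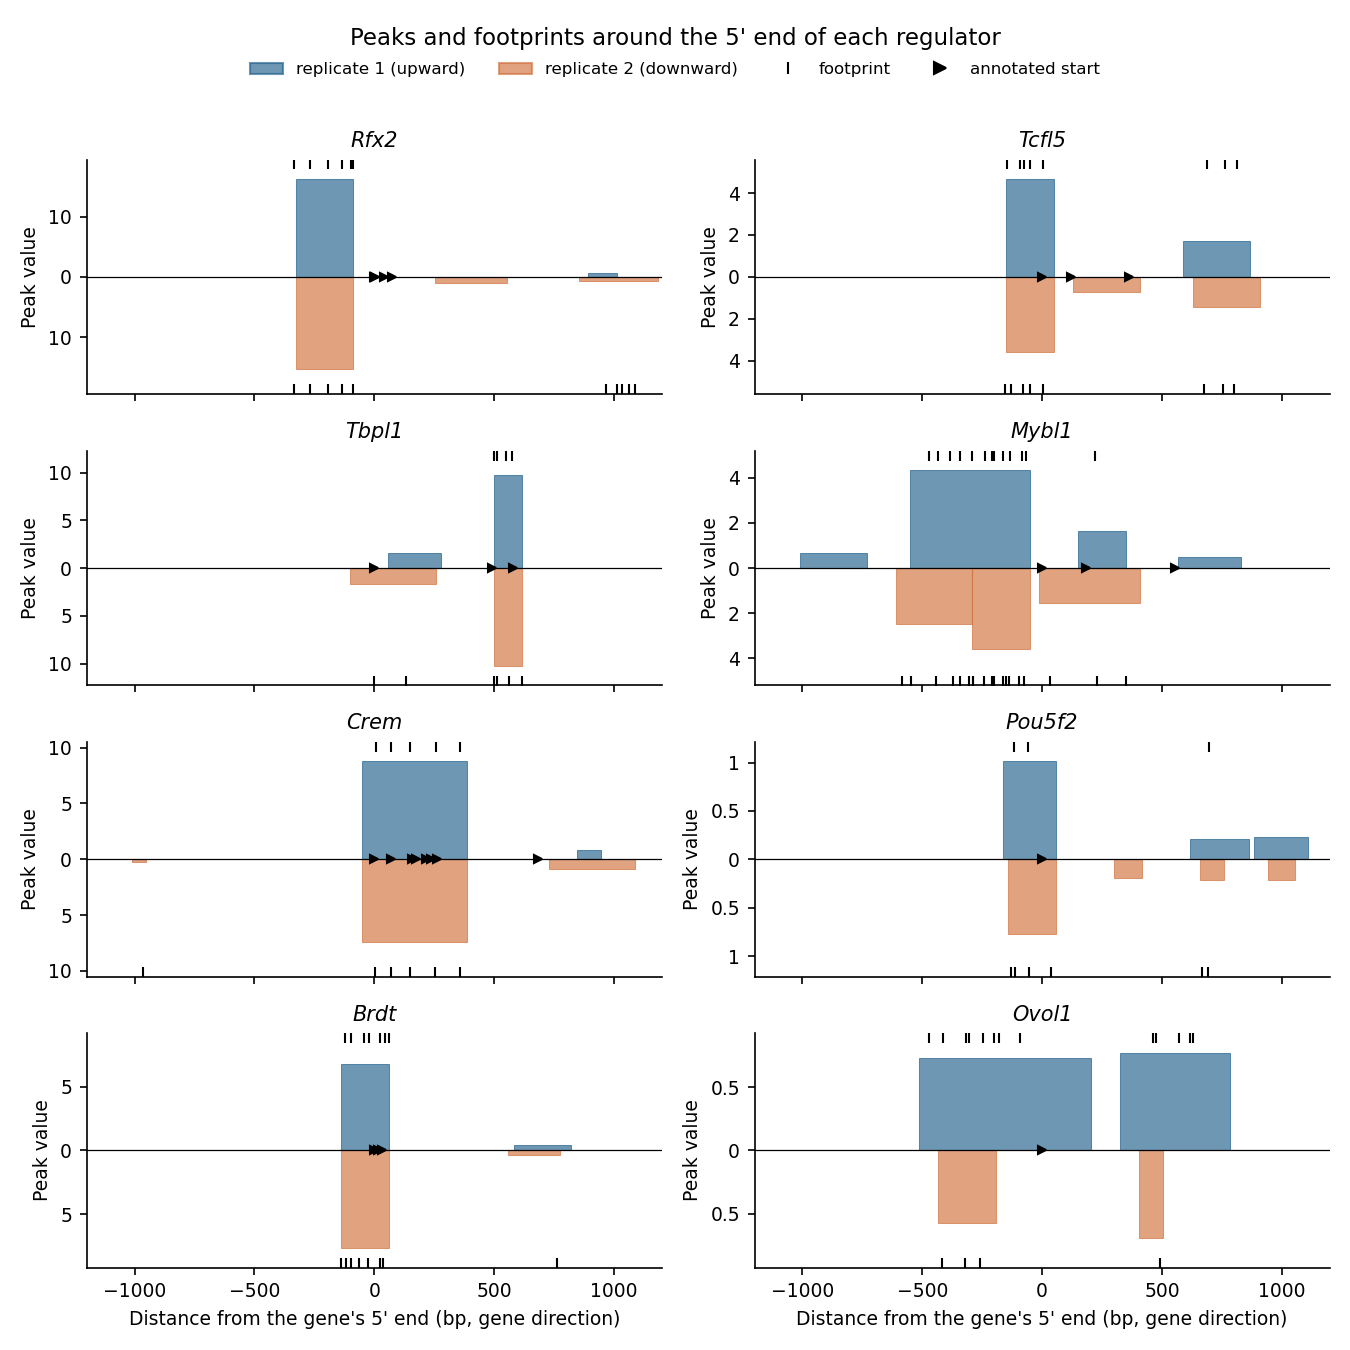
Peaks within 1200 bp of the 5' end of each regulator, by distance in bp in the gene's direction, with the value of replicate 1 drawn upward and of replicate 2 downward on a scale set per gene, ticks for footprints and triangles for annotated starts. Rfx2 and Mybl1 have their strongest peak upstream of every start, Tbpl1 has it about 557.5 bp inside the gene, and the 2 low peaks of Ovol1 differ in width between libraries.

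The binding letters of these factors were then looked for in the windows of 300 bp centred on the strongest promoter peaks, on both strands. The MYB letters AACNGNC were in the windows of 5 members in replicate 1 and 4 in replicate 2, and in 32.7% and 32.9% of all such windows. At Rfx2 one of its 2 matches, 145 bp upstream of the 5' end, overlapped a footprint in both libraries and the other in neither. The match at Mybl1, within the window of replicate 1 alone, overlapped a footprint of that library, and those at Tcfl5, Tbpl1 and Pou5f2 overlapped none. Over all windows, 28% and 31.1% of AACNGNC matches overlapped a footprint. At Tcfl5 the shorter MYB letters TAACNG (15.9% and 16.4% of windows) lie 98.5 bp upstream on the same bases as the OVOL letters CCGTTA, which are their reverse complement here (3.41% and 3.58%), and a footprint overlapped them in replicate 1 only. The E-box CACGTG, read by helix-loop-helix factors such as TCFL5, was found 40.5 bp upstream of Brdt within a footprint in both libraries, and in 10.6% and 10.8% of all windows. It was also in the window of Ovol1 in replicate 2, 386.5 bp inside the gene and outside footprints. Of all such matches, 39.2% and 43.9% overlapped a footprint. A CCAAT box stands 24 bp upstream of Brdt in a footprint of both libraries, and Rfx2 has 2 of them, at 199 and 257 bp upstream, also protected in both. Of the 2 at Mybl1, the one 220 bp upstream was outside footprints in both libraries and the one 311 bp upstream was protected in replicate 2 only. CCAAT was present in 36.4% and 36.9% of windows, and 39.9% and 42.4% of its matches overlapped a footprint.

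Other letters were rarer among the members or common everywhere. The half-site GTTGCC of RFX factors was in the windows of Rfx2 itself and of Crem (13.3% and 13.6% of all windows), and neither match, that at Rfx2 108.5 bp upstream, overlapped a footprint in either library. The full cyclic-AMP response element TGACGTCA was in no member's window and in 3.39% and 3.37% of all. Over all windows, 86.7% and 89.8% of its matches overlapped a footprint, so a protected full element is the usual case. These windows cover only the strongest peak of each gene. At the inner open cluster of Crem, which they leave out, a full element lay within 5 bp of a footprint in both libraries, centred 56644 bp from the 5' end. Another lay within 5 bp of a footprint in the replicate 2 peak, centred at 56577.5 bp. This second footprint overlapped 2 footprints of replicate 1 that lay outside the peak listed there. The half-site TGACG of this element was in the windows of Crem and Rfx2, and of Mybl1 in replicate 2 (31% and 31%). At Mybl1, 69 bp upstream, a footprint lay within 5 bp of it in both libraries, in replicate 1 outside the window. The match at Crem overlapped a footprint in replicate 2 only, and that at Rfx2 in neither library. Over all windows, 45% and 50% of its matches overlapped a footprint. The POU octamer ATGCAAAT (1.24% and 1.28%), the TATA box TATAAA (3.89% and 4%) and the NRF1 letters GCGCATGC (5.86% and 5.73%) were in no member's window. At Ovol1, however, NRF1 letters lay within 5 bp of a replicate 1 footprint centred 92 bp upstream, outside the window on its stronger peak. That footprint overlapped 1 footprint of replicate 2, which lay outside the peaks listed there. Within all windows, 87.8% and 89% of NRF1 matches overlapped a footprint. The GC box GGGCGG was in 7 of 8 windows, all but Brdt, and in 67.7% and 66% of all. The ETS letters at Tbpl1, chosen after its footprint had been seen, were in 7.49% and 7.42% of windows. RefSeq promoter sequences, from 250 bp before to 50 bp after a start, were matched for Tcfl5, Tbpl1, Brdt, Pou5f2 and Rfx2, and held CACGTG at Brdt alone among the 5, beside 8.09% of 27025 promoters.

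Away from promoters, the 8 genes differed in how many peaks lay around them. Peaks within 50 kb of a start and outside every promoter window numbered 11 and 10 at Rfx2, 7 and 7 at Tbpl1, 5 and 5 at Tcfl5, 4 and 4 at Mybl1, 2 and 6 at Brdt, 1 and 3 at Ovol1, 3 and 1 at Pou5f2, and 0 and 0 at Crem. The median was 3.5 and 4.5 over the members and 4 and 4 over all genes. Some count only through inner starts: around the 5' end alone the number was 7 and 7 at Rfx2, 4 and 4 at Tbpl1, and 1 and 0 at Mybl1, whose inner starts were closed, with no change at the other 5. Crem had none although its 26 starts span a longer stretch than those of the others, as did 9.48% of all genes in both libraries. The 3 of the 5 entries per library at Tcfl5 that overlap one another lie in coding sequence of Dido1, so they count 1 region repeatedly.

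At Rfx2, 9 of these peaks were shared, and 6 in replicate 1 and 5 in replicate 2 lay in its own introns. The strongest intronic one, 20592.5 bp inside the gene in replicate 1, had 2.06 and 1.77, and those at 16502.5 and 25852.5 bp had 1.49 and 1.25, and 1.24 and 1.51. Stronger still were a peak in Nrtn, which encodes neurturin, with 4.86 and 4.45, and one whose nearest gene is Dus3l, with 3.92 and 3.74. They lie 79412.5 and 68792.5 bp from the Rfx2 5' end in replicate 1, beyond its 3' end, and within 50 kb only of the inner start that was closed. Rfx2 had more such peaks than 91.5% of all genes in replicate 1 and 82.5% in replicate 2. Ovol1 showed the reverse of Rfx2 in its balance: the peak chr19:5529421-5529620, 31125.5 bp past its 5' end and beyond its 3' end, had 5.27 and 3.85 with 4 footprints in each library, above either of its promoter peaks. That peak lies in an intron of Gm31166, and its nearest coding gene is Snx32, so which gene it belongs to was not tested. The distal peaks of Mybl1, Tcfl5, Tbpl1, Brdt and Pou5f2 were all below 1, with maxima from 0.220 at Pou5f2 to 0.973 at Tcfl5 in replicate 1.

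**Figure D4:**
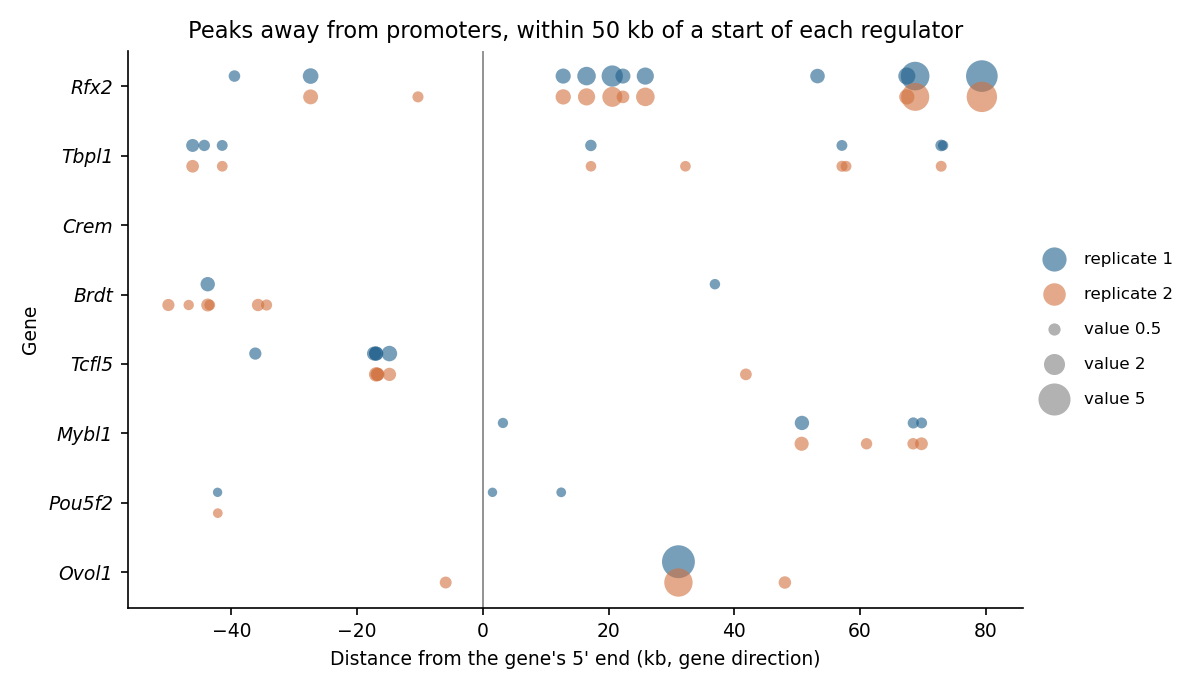
Peaks outside promoter windows and within 50 kb of a start of each regulator, by distance from its 5' end (kb, gene direction), with the area of a point rising with the peak's value and 1 colour per library. Rfx2 has 11 and 10, Crem has none, and the single large pair at Ovol1 has 5.27 and 3.85.

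Related genes gave a frame for these levels, as counts and medians only, beside the 68.7% of all genes open in both libraries. Of 22 paralogs of the 8 regulators, with none listed for Tcfl5, 18 were open in both replicates. Another 1 was open in replicate 1 alone and 3 were closed. The median over the 22 was 4.41 ± 0.31 (SD, n = 2). Rfx1, a paralog of Rfx2, had 17.4, Brd2, a bromodomain relative of Brdt, 15.3, and Pou2f1, the widely expressed POU factor OCT1, 12.9. The Brd2 peak is shared with the promoter of H2-DMa, and in replicate 2 the value was 13.9 over all starts of Brd2 and 8.23 at its 5' end alone. Ovol3 and Pou5f1, the gene of the pluripotency factor OCT4, had no peak, and Rfx8 had one of 0.554 in replicate 1 alone. Of 10 partners of the 8, 9 were open in both libraries, with a median of 5.83 ± 0.42: Taf4b, a TFIID subunit of germ cells, had 15.9, Sox30, a factor acting at the end of meiosis, 8.83, and Gtf2a1, a TFIIA subunit, 7.45, while Fhl5, the coactivator ACT of CREM, had none.

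Genes that the programme is known to switch on were listed by stage, and counts are again to be read against 68.7% of all genes. Of 15 pachytene genes, 14 were open in both replicates, with a median of 2.02 ± 0.33 (SD, n = 2), among them Hspa2, a germ-cell chaperone, at 17.9, Cdc25c, a phosphatase that starts the meiotic divisions, at 10.2, and Mov10l1, a piRNA-pathway helicase, at 9.45. Lower values overlapped those of the next list: Pgk2 had 0.346, Ldhc 0.438 and Tdrd6 0.463. Acr, the acrosomal protease, had none. Of 12 genes of haploid spermatids, 2 were open in both replicates, 1 was open in replicate 2 alone and 9 were closed. Gapdhs, the sperm glycolytic enzyme, had 0.664, Actl7b 0.458 from a peak it shares with Gm26657, and Tnp1, a transition protein, 0.226 in replicate 2 alone, with none at Acrv1 or Akap4. Crem and Rfx2, known as activators of such genes, had promoter values of 8.09 and 15.8, whereas the median over the haploid list was 0 in both libraries, beside 1.42 and 1.30 over all genes.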

How the data were processed

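Per the deposited text descriptions, each library's peaks, footprints and FDR track came from its own alignments (mm10), not from pooled libraries. For the aligner and callers, names and versions were "not given in the sources used here". Each deposited peak value is a signal column scaled per library by the authors. All of its values below 1 are whole multiples of 1 step within 0.05 steps, and what a step counts is unknown. The deposited p-value column of the footprints holds 0.01 throughout, so positions alone were used. The authors' FDR track (q-values) lists only bases below 0.05. Reads from the castaneus allele may map less well to this build, which was not tested.

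Peaks of the longer lists were assigned to 21911 GENCODE M21 protein-coding genes by overlap with 1000 bp on each side of any start, and elsewhere within 50 kb, with Python 3.11.15, pandas 2.3.3 and pysam 0.24.0. The functions were tested on simulated data. Starts within 1000 bp formed a cluster. A footprint counted for a peak where any part of it overlapped the peak. A motif counted as protected where a footprint overlapped it. Members and lists were chosen with earlier results of these data known. All members are named, as are the 3 highest and first 2 closed genes by alphabet per related list, and the highest and first closed gene per marker list. Rfx8, Pgk2, Ldhc, Tdrd6 and the ETS letters were chosen after their values were seen. The sequence of 1 further promoter peak is not reported here.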

Additional observations from a re-analysis of the deposited data

How the results depend on the processing

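All 8 regulators kept a promoter peak in both libraries with windows of 500 or 2500 bp, the shorter peak lists, the 5' end alone, or only peaks at or above the library's median value. These settings left each member's promoter value as it was, since the strongest peak stayed the same. Leaving out a library gives the value of the other, which with 2 libraries says nothing about stability: the median over the members was 5.50 without replicate 1 and 5.73 without replicate 2. The number of distal peaks per member (median 4, mean of both libraries) depended on its limits: it was 0.75 within 25 kb, 9.75 within 100 kb, 1.25 with the shorter lists and 1.5 with peaks at or above the library median, beside 2, 8 to 9, 2 and 2 over all genes. Around the 5' end alone, a setting chosen after seeing the data, it was 3. Without one replicate it was 3.5 to 4.5. Footprints in promoter peaks, counted per peak, numbered 74.5 on average and 68 when wholly inside the peak. In the first count a footprint across the border of 2 peaks, as at Mybl1 in replicate 2, counts for each. Of the 20 shared peaks of replicate 1, 14 overlapped by at least 50% in both directions. The strongest promoter peaks of Ovol1 and Pou5f2 are low and equal 144 to 205 steps. Their weaker ones go down to 39 steps, at Pou5f2 in replicate 1. What a step counts is unknown, so their precision beyond the spread of the libraries is not known. No paired analysis was possible because the labels give 1 group.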
